A study of Mus musculus with 2 samples.

Results

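Mir221 and Mir222 are the 2 neighbouring genes of the miR-221/222 cluster on the mouse X chromosome, and both were among the 2202 microRNA (miRNA) genes counted in the hippocampus. They were chosen by name and position, not by their values. The small RNA libraries were made from hippocampus of B6CASTF1/J mice, F1 hybrids of C57BL/6J and CAST/EiJ, all female, 2 months old and with no treatment named. There is 1 group with 2 libraries, labelled as biological replicates 1 and 2. The libraries have separate tissue records and share 1 donor record. The labels describe the tissue as a layer of hippocampus and name no layer. Nothing in them states that 2 animals were used, and differences between the libraries can therefore be technical in part.

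A miRNA gene is transcribed as a hairpin, and 1 or both arms of the hairpin are cut out as a mature miRNA of about the length of a small RNA read. The mature miRNA pairs with messenger RNAs mainly through its seed, bases 2 to 8 from the 5′ end, so miRNAs with the same seed can act on overlapping targets. miR-221 and miR-222 are known from human and rodent cells as repressors of the cell cycle inhibitor Cdkn1b (p27Kip1) and of the growth factor receptor Kit, and they are studied in dividing cells, in endothelium and in vascular smooth muscle. Messenger RNAs are not analysed here, so no target is described.

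The mature sequences, credited to RefSeq (build GRCm38.p6), show what the genes share and where they differ. Capitals mark the seed, and the sequences are written 5′ to 3′.
miR-221-3p: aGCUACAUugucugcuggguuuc
miR-222-3p: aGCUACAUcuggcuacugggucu
miR-221-5p: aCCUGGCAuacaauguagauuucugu
miR-1928: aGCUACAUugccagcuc
The 3p arms of both genes are 23 bases long and share their first 8 bases, and thus the whole seed. Set side by side without gaps, they were identical at 11 of 23 positions. Counted from 1 at the 5′ end, with the base of miR-221-3p first, the run of differences opens with U9C and the last is C23U. The match to the seed in a target would read AUGUAGC. The GC content was 47.8% for miR-221-3p and 52.2% for miR-222-3p. Among 1738 mature mouse sequences searched, 3 carried this seed, those of both genes and miR-1928 on chromosome 1. miR-1928 is 17 bases long and matched miR-221-3p over the first 10 bases.

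The hairpins carry these arms, in capitals below, and are shown because the counts are per hairpin and do not separate the arms.
Mir221: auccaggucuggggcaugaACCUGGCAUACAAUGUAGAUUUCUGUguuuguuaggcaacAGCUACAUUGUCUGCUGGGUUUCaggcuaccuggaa
Mir222: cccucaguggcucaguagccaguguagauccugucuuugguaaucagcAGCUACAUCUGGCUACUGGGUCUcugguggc
Mir221 (ENSMUSG00000065422.1) lies at chrX:19146294-19146388 on the minus strand and Mir222 (ENSMUSG00000065471.1) at chrX:19146893-19146971 on the same strand of the mouse build mm10. The hairpins are 95 and 79 bases long, and 504 bases separate them, with Mir222 upstream in the direction of transcription. Their predicted folding energies were -42.8 kcal/mol for Mir221 and -40.7 kcal/mol for Mir222. No other GENCODE M21 gene overlaps the pair, so both are intergenic in that annotation. The nearest gene is the non-coding gene Gm14636, 10010 bases upstream of Mir222 on the same strand. The longest stretch that Mir221 shares with any other miRNA gene is 13 bases and that of Mir222 12 bases, on either strand. Each falls short of the 20 identical bases used here to call a gene a copy of another.

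**Figure D1:**
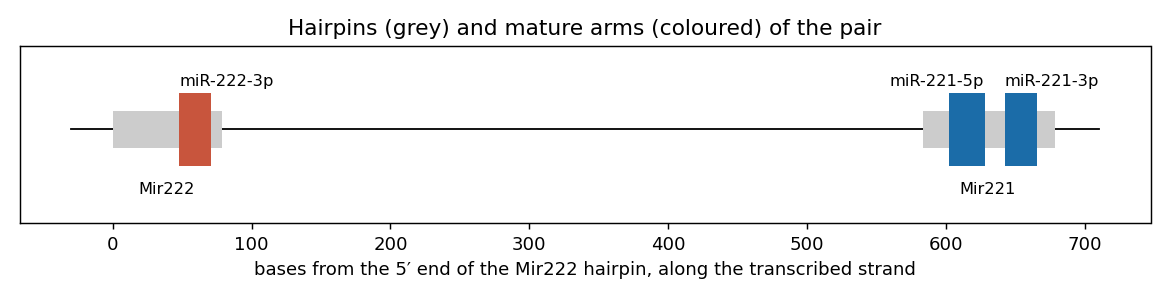
Positions of the 2 hairpins (grey) and their annotated mature arms (red for Mir222, blue for Mir221) in bases from the 5′ end of Mir222, along the transcribed strand. The hairpins are drawn to scale with 504 bases between them.

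Replicate 1 held 4517648 sense counts on miRNA genes and replicate 2 held 5979247, and levels are given as counts per 1000000 of these (CPM). Multi-mapping reads, 45.9% of replicate 1 and 48.4% of replicate 2, were assigned to no gene, and every level and rank below refers to uniquely mapped reads. The neuron list, 11 genes with counts for each, summed to 4.48% of counts in replicate 1 and 4.98% in replicate 2. Its 3 Mir124a genes, which share 20 or more bases with each other, had 13 counts or fewer in each library.

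Mir221 was an abundant miRNA at nearly the same level in both libraries, and Mir222 was less abundant and differed between them. Mir221 had 47376 counts in replicate 1 and 61222 in replicate 2, which is 10487 CPM (95% Wilson interval 10393 to 10581) and 10239 CPM (10159 to 10320). It was the gene of rank 20 in each library. Mir222 had 23043 counts in replicate 1 and 11434 in replicate 2, which is 5101 CPM (5035 to 5167) and 1912 CPM (1878 to 1948). The replicate with the larger total thus held the smaller count of Mir222. Its rank was 37 in replicate 1 and 69 in replicate 2. Mean levels were 10363 ± 175.2 CPM for Mir221 and 3506 ± 2255 CPM for Mir222 (SD, n = 2). The intervals reflect the counting of reads and nothing else. Reads copied by PCR are not separate molecules, so the counting error of molecules can be larger. In bulk tissue, fewer cells of a type and less RNA per cell cannot be told apart.

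The antisense column held 0 counts at both genes in both libraries, which allows a level of up to 0.664 CPM (replicate 1) or 0.502 CPM (replicate 2). The column without regard to strand held the same counts as the sense column. Mir1928, which carries the same seed, had 0 counts in both libraries, with the same limits. The search for the seed covered RefSeq sequences, which matched 968 of the 2202 genes counted, so genes without an entry were not searched.

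Mir221 exceeded Mir222 in both libraries, by factors that differed. The ratio of Mir221 to Mir222 counts was 2.06 in replicate 1 (95% exact binomial interval 2.02 to 2.09) and 5.35 in replicate 2 (5.25 to 5.46). Per base of hairpin, the ratios were 1.71 and 4.45, in the same order of replicates. As a share of the summed counts of both genes, Mir221 made up 67.3% in replicate 1 (95% Wilson interval 66.9 to 67.6) and 84.3% in replicate 2 (84.0 to 84.5), a mean of 75.8% ± 12.0 (SD, n = 2). The direction was therefore the same in both libraries, and the size was not. A two-sided Fisher's exact test on the 2 genes and 2 libraries gave an odds ratio of 0.384 (95% exact interval 0.374 to 0.394), with a p too small to be represented as a number. That test does not depend on how the libraries are scaled, and it compares the reads of these 2 libraries and no condition.

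**Figure D2:**
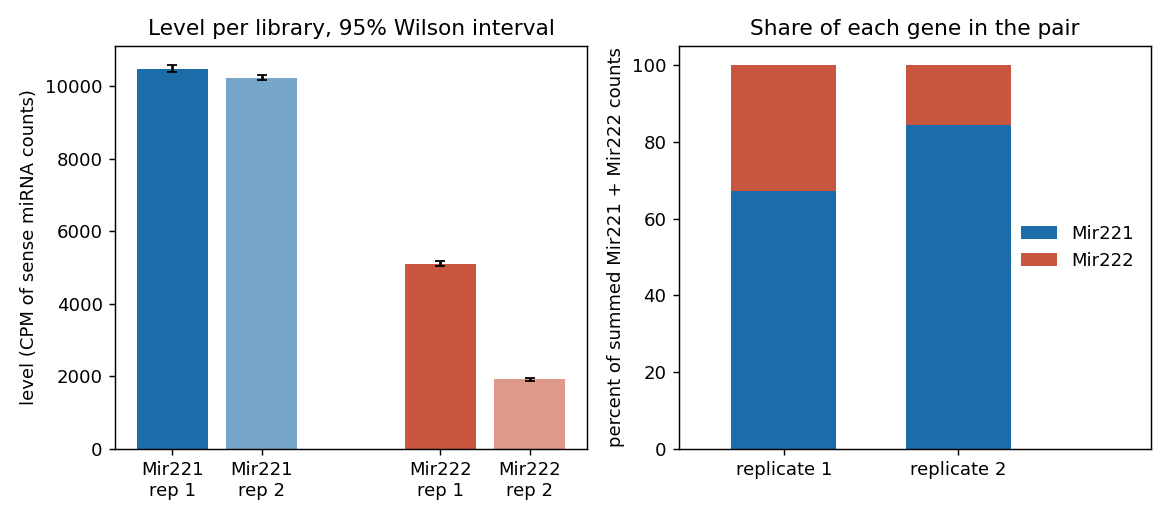
Left, levels of Mir221 and Mir222 in CPM for replicate 1 and replicate 2, with 95% Wilson intervals as error bars. Right, the percent that each gene makes up of their summed counts per library: Mir221 held 67.3% in replicate 1 and 84.3% in replicate 2.

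The replicate ratio of each gene was then read against every gene that had 10 or more counts in each library. Mir222 was 2.67-fold higher in replicate 1, a log2 ratio of replicate 1 over replicate 2 of 1.42 (95% exact binomial interval 1.38 to 1.45). A two-sided Fisher's exact test against all other miRNA counts, with Benjamini-Hochberg adjustment, gave an adjusted p too small to be represented. For Mir221 the log2 ratio was 0.034 (0.017 to 0.052, adjusted p = 0.000206 by Fisher's exact test), and it turned to -0.0030 with TMM factors (adjusted p = 0.821, exact binomial test) and to -0.0086 with DESeq2 size factors (adjusted p = 0.451). Thus Mir221 has no stable direction between the libraries, whereas the log2 ratio of Mir222 lay between 1.37 and 1.49 in the 12 alternatives tried. Other minimum counts, among these alternatives, cannot change a ratio.

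Passing this test says little at such depth. Of 420 genes tested, 239 differed between the replicates (56.9%), 125 of them higher in replicate 1 (29.8%) and 114 lower (27.1%). That split turned with the scaling, to 113 higher and 125 lower with DESeq2 size factors and to 154 higher and 97 lower with all reads as the total. Of the 93 genes at 1000 CPM or more on average, 88 differed (94.6%). The size of the ratio was therefore compared as well. Over all tested genes the median absolute log2 ratio was 0.30, and 21 of 420 (5.00%), Mir222 included, had one at least as large as that of Mir222. A difference of 2-fold or more in either direction was found in 41 of the 420 genes (9.76%) and in 8 of the 93 abundant ones (8.6%). Mir222 was the 1 gene among those 93 that was at least 2-fold higher in replicate 1 (1.08%). In contrast, 396 of the 420 tested genes (94.3%), Mir221 included, had a ratio at least as far from 0 as that of Mir221.

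**Figure D3:**
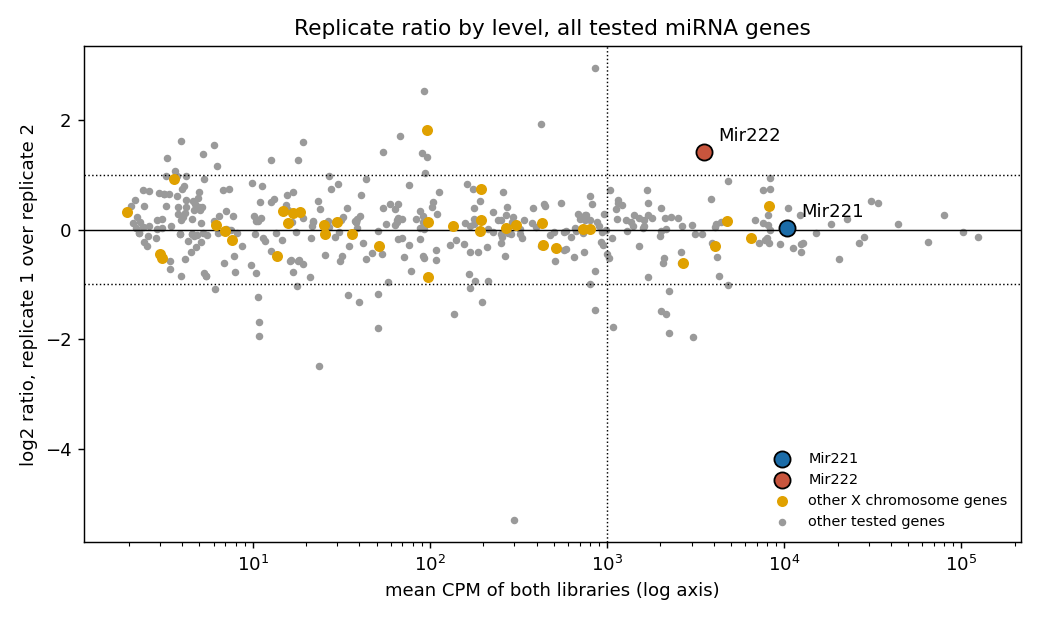
Log2 ratio of replicate 1 over replicate 2 against mean CPM (log axis) for the 420 tested genes, with Mir221 in blue, Mir222 in red and the other tested X chromosome genes in yellow. Dotted lines mark 2-fold differences and 1000 CPM; Mir222 is the 1 point above the upper line to the right of 1000 CPM, and Mir221 lies near 0, where its sign turns with TMM or DESeq2 scaling.

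Because the seed is shared, the summed level of both genes was also compared. Together they held 15587 CPM in replicate 1 against 12151 CPM in replicate 2, or 1.56% (95% Wilson interval 1.55 to 1.57) and 1.22% (1.21 to 1.22) of all miRNA counts, with a mean of 1.39% ± 0.243 (SD, n = 2). The sum was 1.28-fold higher in replicate 1, a log2 ratio of 0.36 (95% exact binomial interval 0.34 to 0.37). The summed level thus differed less between the libraries than Mir222 alone, since Mir221 made up most of it.

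Most neighbouring miRNA genes did not have so unequal a pair of replicate ratios. Adjacent genes on the same strand with starts within 10000 bases and 10 or more counts per library in each gene formed 89 pairs. The absolute difference between the log2 replicate ratios of the 2 genes had a median of 0.44 and a range of 0.016 to 2.53 over these pairs. For Mir221 and Mir222 it was 1.38, and 7 of the 89 pairs (7.87%), this one included, had a difference as large. Among the 13 pairs with both genes at 1000 CPM or more, the median was 0.39 and 2 reached 1.38. The other was Mir497 and Mir195a on chromosome 11, of the miR-15/16 seed family, at 1.84. Mir497 had 9412 counts in replicate 1 and 7583 in replicate 2, and Mir195a had 6323 and 18288. In that pair at least 1 gene shares 20 or more bases with another miRNA gene, so its counts are uncertain, whereas Mir221 and Mir222 have no such copy. Of the 4 abundant pairs without a copy, the other 3 were below 0.5. They were Mir181d and Mir181c, Mir433 and Mir127, and Mir127 and Mir434, so Mir127 stands in more than 1. The difference in level within the pair was not large by comparison, as the mean CPM of Mir221 was 2.96-fold that of Mir222. Over the 89 pairs, the median between the higher and the lower gene was 8.21-fold. Over the 13 pairs with both genes at 1000 CPM or more, the median was the 2.96-fold of this pair, and 6 were smaller.

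**Figure D4:**
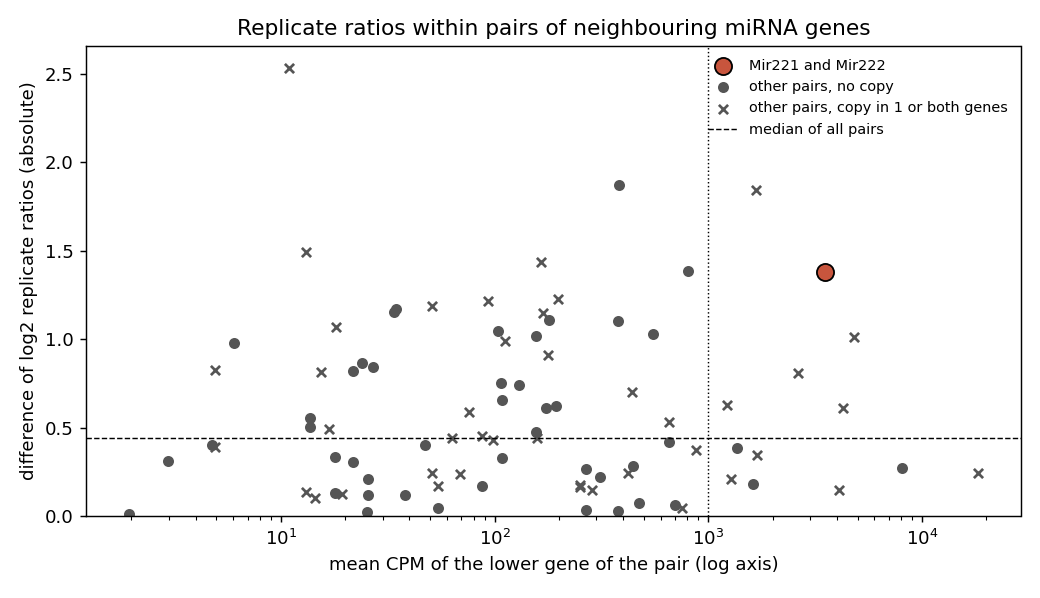
Absolute difference of the log2 replicate ratios (replicate 1 over replicate 2) within each of the 89 neighbouring pairs, against the mean CPM of the lower gene (log axis), with crosses for pairs in which a gene has a copy. Mir221 and Mir222 (red) lie at 1.38, above the median of 0.44 (dashed line); to the right of 1000 CPM (dotted line) 1 other pair is higher.

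On the X chromosome, 38 of 142 miRNA genes could be tested and Mir221 was the most abundant. The pair held 33.3% of the chromosome's miRNA counts in replicate 1 and 28.3% in replicate 2. Of the 38 genes, 8 were higher and 7 lower in replicate 1 by Fisher's exact test (39.5% in either direction, against 56.9% over all tested genes). With TMM factors the counts were 6 higher and 7 lower, and with DESeq2 size factors 5 and 7. Their median log2 ratio was 0.051, against 0.068 over all 420 tested genes. Without Mir221 and Mir222, the chromosome's miRNA genes summed to 3.12% of counts in replicate 1 and 3.09% in replicate 2. Mir652, the next in level, had 9418 CPM in replicate 1 against 6982 CPM in replicate 2. Mir98, a let-7 family gene, had 6143 and 6854 CPM. A difference of 2-fold or more was found in 2 of the 38 genes (5.26%, against 9.76% over all tested genes), Mir222 and 1 other. The other was Mir505, named after its values were seen, with 680 counts in replicate 1 and 252 in replicate 2, 3.57-fold higher in replicate 1.

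In the order of mean levels, Mir221 stood below Mir151 (11188 ± 1871 CPM) and Mir330 (10467 ± 2006 CPM) and above Mir328 (9495 ± 1185 CPM) and Mir23a (8329 ± 2987 CPM; SD, n = 2 throughout). Mir23a shares 20 or more bases with another gene and is uncertain. Each of these neighbours differed from Mir221 by less than its own SD. Mir222 stood below Mir378a (3894 ± 453 CPM) and Mir30e (3884 ± 1046 CPM), both with copies, and above Mir335 (3426 ± 132.5 CPM) and Mir187 (3148 ± 113.2 CPM), with all 4 differences within the SD of Mir222.

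With 2 libraries, likeness in pattern comes down to 1 ratio per gene. Among genes at 1000 CPM or more, the log2 replicate ratios closest to that of Mir221 were those of Mir874 (0.029), Mir138-1 (0.045, a gene with a copy) and Mir320 (0.015). For Mir222 the closest were Mir149 at 0.95, Mir99b at 0.88 and Mir23a at 0.75. The ratio of Mir222, at 1.42, lay above all 3.

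Lists of miRNAs often studied beside miR-221 and miR-222 were read in the same way. In the growth and proliferation list, 9 of 11 genes were tested, 4 were lower and 0 higher in replicate 1, against 27.1% lower and 29.8% higher over all tested genes. Their median log2 ratio was -0.052. Mir21a, which is induced in reactive and dividing cells, had 957.1 CPM in replicate 1 and 3537 CPM in replicate 2. Its difference was thus opposite to that of Mir222. Mir18, of the miR-17~92 cluster, had 94 and 290 counts in replicates 1 and 2, Mir25 181 and 323, and Mir106b 2080 and 2943, while Mir19a and Mir19b-1 had no count. Of this list, Mir19b-1 and Mir92-1 share 20 or more bases with another miRNA gene, so their counts are uncertain. By Fisher's exact test with adjustment, Mir93, Mir17, Mir92-1, Mir20a and Mir155 did not pass, with log2 ratios from -0.052 to 0.15.

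The vascular list had 3 of 5 genes tested, of which 2 were lower and 0 higher in replicate 1, against 27.1% lower and 29.8% higher over all tested genes. Both lie above 1000 CPM, where 94.6% of genes differed. The median of their log2 ratios was -0.15. Mir126a, the endothelial miRNA, had 11285 CPM in replicate 1 against 13591 CPM in replicate 2, and Mir143, of smooth muscle and pericytes, had 7618 and 8430 CPM. Mir145a did not pass at 319.9 and 303.5 CPM, Mir145b had 0 and 1 counts, and Mir126b had none. The list as a whole made up 1.92% of counts in replicate 1 and 2.23% in replicate 2. Sums of the other cell type lists are given beside these. The oligodendrocyte list (3 of 3 genes with counts) held 0.653% in replicate 1 and 0.698% in replicate 2, the microglia and leukocyte list (5 of 5) 0.176% and 0.206%, and the erythroid list (3 of 3) 0.00954% and 0.0143%. These sums rest on their most abundant genes, and single members differed in both directions: 3 of the 7 tested neuron genes were higher and 3 lower in replicate 1, and Mir338 of the oligodendrocyte list was higher (log2 ratio 0.10) while Mir219a-2 was lower (-0.41). The median log2 ratio was 0.15 in the microglia and leukocyte list, where 0 genes were higher and 2 lower, and -0.62 in the erythroid list, where 0 were higher and 2 lower. All neuron genes but Mir132 and Mir137, and every oligodendrocyte gene, share 20 or more bases with another miRNA gene. The same holds for Mir142, Mir146, Mir451a and Mir486 of the other lists, so such counts can be uncertain. The part of the listed cell types in the difference of Mir222 was not tested.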

How the data were processed

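The authors deposited whole-number read counts per miRNA gene for each library, not normalized and not pooled, on mm10 with GENCODE M21, per the deposited notes. No aligner or trimming step is named (not given in the sources used here), nor how castaneus-strain variants were handled on mm10. Of 3 columns of counts, the sense column was identified by its values, as it has the greater total of the stranded columns. Reads assigned to no gene did not enter library sizes. Symbols and positions came from GENCODE M21, which matched all 2202 identifiers, and sequences from RefSeq (968 genes matched, both members among them).

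Every gene with 10 or more counts in each library entered Fisher's exact test, two-sided, with Benjamini-Hochberg adjustment at 0.05 (SciPy 1.17.1). The test was also run on simulated Poisson counts. These hold counting error only, so that run cannot show how the test behaves when libraries vary beyond it. Other scalings (edgeR 4.0.16, DESeq2 1.42.0) used the exact binomial test. Log2 ratios are of CPM + 0.5. Folding used RNAfold 2.7.2. With 1 group, edgeR's quasi-likelihood test has nothing to compare. A count of 0 was read as allowing 3 counts.

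The pair was chosen by name and position, but earlier results of these data were known when the genes, lists and tests were chosen. Named genes are the members, those next to them in level, the 3 abundant genes (1000 CPM or more) closest in ratio, the leading X chromosome genes, abundant pairs with as large a difference, genes with the same seed and the lists. Alternatives tried were the unstranded column, other totals, other minimum counts, TMM and DESeq2 factors, a thinned library, pseudocounts of 1 and 5 CPM, and each library alone.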

Additional observations from a re-analysis of the deposited data

How the results depend on the processing

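Of 12 alternatives, the log2 replicate ratio kept its direction and its side of the threshold in 12 for Mir222 and in 9 for Mir221. Other minimum counts cannot change the ratio, and at these levels pseudocounts of 1 and 5 CPM hardly can. Those alternatives are therefore a weak check. The number of genes that differed stayed within 1.5 times in the 10 alternatives tried, from 200 to 251, but the direction with more calls turned with TMM (114 higher and 122 lower in replicate 1) and DESeq2 factors. The log2 replicate ratio of Mir221 reversed under TMM (-0.0030) and under DESeq2 scaling (-0.0086), and it no longer passed with the total without the most abundant gene (0.017, Fisher's exact test, adjusted p = 0.0954). Under other denominators, the level of Mir221 became 11226 CPM in the column without regard to strand, 11831 CPM without the most abundant gene and 3911 per 1000000 of all reads, because the denominator changes. With each library alone, which by construction lies within the SD of 2 libraries, it ran from 10239 to 10487 CPM, that of Mir222 from 1912 to 5101 CPM, and the share of Mir221 from 67.3% to 84.3%. Restricted to pairs without a copy, an alternative added after seeing the data, 3 of 47 neighbouring pairs had a difference as large as Mir221 and Mir222, since fewer pairs were compared. The X chromosome and list counts with other scalings were added later too. A single library gives levels and no ratio. No paired analysis was possible because the series holds 1 group of samples.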

Other observations

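Genes with a shared seed need not be neighbours, so the replicate ratios were also set side by side for all pairs of genes at 1000 CPM or more that share a seed on any RefSeq arm, a comparison added after seeing the data. The 41 such pairs came from 28 genes, and a gene can stand in several pairs. Most of them join genes of the let-7 family (seed GAGGUAG), whose log2 replicate ratios differed by at most 0.48. The median over all pairs thus mostly describes that family. The absolute difference between the log2 replicate ratios of the 2 genes had a median of 0.21, and 2 pairs reached the 1.38 of Mir221 and Mir222. The other was Mir195a and Mir497, at 1.84. RefSeq hairpins matched 354 of the 420 tested genes, so pairs that share a seed can be missing here. Mir30d (4830 CPM on average, log2 replicate ratio -1.01) stands in no pair. Mir30e, also named in the miR-30 family and a gene with a copy, had 0.56. The ratios of Mir30d and Mir30e thus lie further apart than those of Mir221 and Mir222. Among the 15 pairs in which neither gene has a copy, again mostly let-7, Mir221 and Mir222 had the largest difference. Mir100 and Mir99b followed at 1.19, and Mir99a and Mir99b at 1.12. The common dispersion over the tested genes, estimated with edgeR from an intercept-only design, was 0.0972, a coefficient of variation between the libraries of 0.312.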
